A study of Mus musculus with 16 samples.

Results

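Myc, Max and genes of ribosome production in the nucleolus were followed through mouse liver tumours and their control livers. Members were taken from a list of 36 symbols: Myc, its partner Max, and genes for RNA polymerase I, small nucleolar ribonucleoproteins, ribosome assembly factors and other nucleolar proteins. All 36 were measured, out of 18193 genes with a single symbol on the array, and each was read from the probe set with the highest mean level. RNA of 16 liver samples from male C3H/HeJ mice had been hybridised to Affymetrix GeneChip arrays, 1 array per sample. There were 7 tumours with a mutated Ctnnb1 gene, which encodes beta-catenin, and 3 control livers, numbered 4 to 6, all given 0.05% phenobarbital. There were also 3 tumours with a mutated Ha-ras gene and 3 control livers, numbered 1 to 3, without phenobarbital. By the design text every mouse, controls included, had a single injection of diethylnitrosamine, a liver carcinogen, at 10 or 90 µg per g body weight and 2 or 6 weeks of age. The samples' own labels give 27 weeks of treatment by drinking water, the design text gives 28 to 36 weeks of diet and the treatment protocol gives 28 days. Mutation and phenobarbital cannot be told apart between the tumour types, because every Ctnnb1 tumour had the drug and no Ha-ras tumour did. The labels do not say which samples came from separate animals, or which dose and age applied to which sample, so p-values measure only the spread between these samples.

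Myc is a transcription factor that binds DNA as a dimer with Max, at a short palindrome called the E-box, and it raises the transcription of many genes needed for growth. Making ribosomes is among its best known outputs. Ribosomal RNA is transcribed by RNA polymerase I in the nucleolus, modified under the guidance of small nucleolar RNAs, and folded and cut by assembly factors while ribosomal proteins join it. In liver Myc is known for its rise in regeneration and for driving tumours when overexpressed, and it is a textbook target of beta-catenin in the intestine.

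The E-box is printed here in the members that carry it, since it is the letters by which Myc and Max are known to find DNA. RefSeq promoter windows of GRCm38.p6, from 250 bases before to 50 after a start, were at hand for 30 of the 36 members. Myc, Fbl, Npm1, Bop1, Rrs1 and Rrp12 have no entry. Distances below count from the start that a window surrounds. For 21 of the 30 members a window has its start at the edge of the gene model. The Max stretch printed below lies inside its gene model, which runs from 76937269 to 76962323. CACGTG, which reads the same on both strands, stood in the windows of 8 of the 30 members (26.7%), against 8.09% of all 27025 genes of the table. These 8 were Imp4, Nop2, Utp20, Pes1, Mybbp1a, Tsr1, Max and Wdr43. In the lists described below it stood in 23.2% of 82 other ribosome assembly factors and 20% of 10 RNA polymerase I factors. The shares were 35.1% of 37 other known Myc targets and 36.4% of 11 Myc network genes. Of 57 ribosomal protein genes 10.5% held it, and of 18 cell cycle genes none did. Each stretch reaches at most 12 bases to either side of the E-box, which is in capitals, and is read 5′ to 3′ on the strand of the gene.
Imp4 (chr1:34439696-34439725, plus strand, E-box starting 121 bases upstream): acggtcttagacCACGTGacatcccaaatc
Nop2 (chr6:125131811-125131840, plus strand, 60 bases upstream): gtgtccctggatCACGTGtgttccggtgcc
Max (chr12:76962234-76962263, minus strand, 3 bases upstream): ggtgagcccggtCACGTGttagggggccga
Pes1 (chr11:3963965-3963994, plus strand, 2 bases downstream): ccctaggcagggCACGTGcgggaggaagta
Wdr43 (chr17:71616220-71616249, plus strand, 17 bases downstream): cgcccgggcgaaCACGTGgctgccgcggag
Tsr1 (chr11:74898092-74898121, plus strand, 24 bases downstream): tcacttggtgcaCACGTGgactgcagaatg
Utp20 (chr10:88826765-88826789, minus strand, 37 bases downstream): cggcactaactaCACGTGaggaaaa
Mybbp1a (chr11:72441355-72441376, plus strand, 40 bases downstream): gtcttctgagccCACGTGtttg

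The windows of Nop58, Ncl, Nhp2 and Ftsj3, all of which passed as higher in Ctnnb1 tumours, do not hold these 6 letters. The 100 bases before the start are printed for the 3 of them whose window begins at the edge of the gene model.
Nhp2 (chr11:51619673-51619772, plus strand): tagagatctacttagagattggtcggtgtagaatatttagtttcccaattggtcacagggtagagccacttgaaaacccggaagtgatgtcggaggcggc
Ncl (chr1:86359456-86359555, minus strand): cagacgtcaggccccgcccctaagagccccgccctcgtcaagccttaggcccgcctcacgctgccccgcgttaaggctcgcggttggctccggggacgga
Ftsj3 (chr11:106256085-106256184, minus strand): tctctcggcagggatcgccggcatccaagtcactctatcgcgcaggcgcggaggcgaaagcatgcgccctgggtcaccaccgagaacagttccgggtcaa

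Of the 8 members with an E-box in the window, Utp20 passed as lower in Ctnnb1 tumours and Tsr1 as higher in Ha-ras tumours, and the other 6 passed in no tumour comparison. A match is a description of letters. It is not a measured binding site, and its absence from a window says nothing of sites elsewhere.

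Array medians of all probe sets lay between 5.03 and 5.10 on the log2 scale. Phenobarbital control 6 stood apart before any group was compared. The array's 3′ probe set for Gapdh exceeded its 5′ probe set by 2.70 log2 units there and by -0.15 to 0.32 on the other 15 arrays, a gap that is read as a measure of RNA quality. Among the members, 8 had their highest and 8 their lowest level of all 16 arrays in this control, and 12 differed by over 0.5 from the mean of phenobarbital controls 4 and 5. Calls of members by their brightest probe set against phenobarbital controls, and counts of the gene lists, are given with and without it. Values of the members' other probe sets are given only with it.

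In Ctnnb1 tumours 5 of the 36 members rose against phenobarbital controls and 2 fell, at a limma adjusted p under 0.05 over all genes. Of all genes, 6.07% rose and 5.97% fell, so that 13.9% of members against 6.07% of genes were higher. Those that rose were Myc, Nhp2, Nop58, Ncl and Ftsj3, and those that fell were Utp20 and Polr1c. In Ha-ras tumours 1 member, Tsr1, rose against untreated controls and 1, Heatr1, fell, while 7.21% of all genes rose and 6.33% fell. The median change over the members was 0.09 on the log2 scale in Ctnnb1 tumours, against -0.03 over all genes, and 0.19 in Ha-ras tumours, against -0.04. Of the 36, 29 did not pass in Ctnnb1 tumours and 34 did not in Ha-ras tumours.

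**Figure D1:**
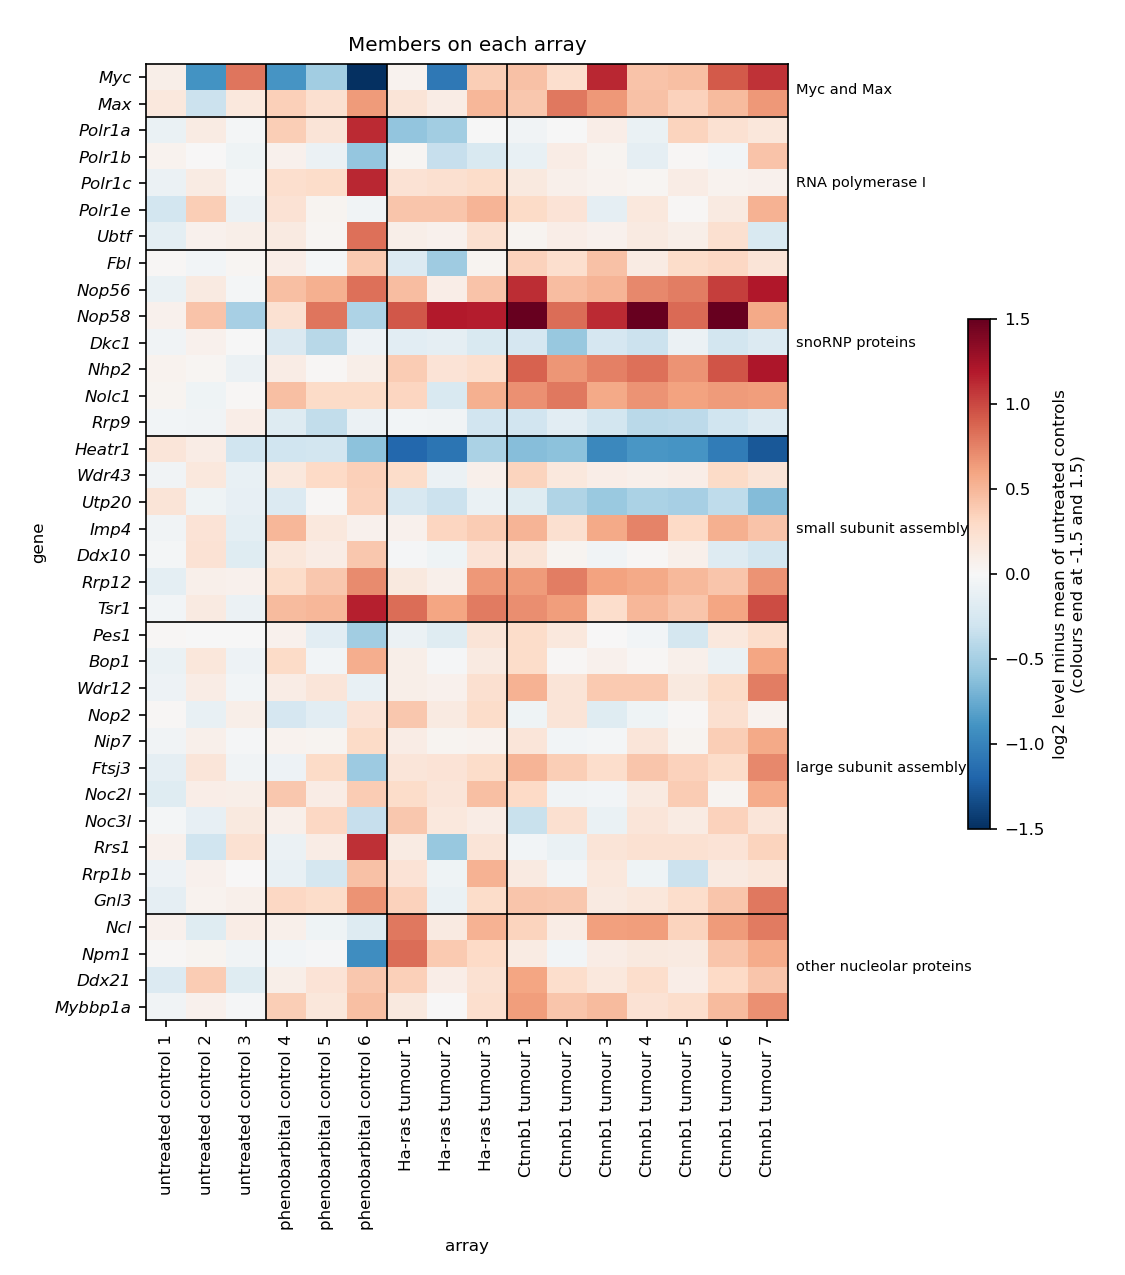
Level of each of the 36 members (rows, grouped by role) on each of the 16 arrays (columns), as the log2 level minus the mean of the 3 untreated controls, with red above and blue below. Myc is darkest red in Ctnnb1 tumours 3 and 7 (8.71 and 8.66), Heatr1 is blue in all tumours, and phenobarbital control 6 differs in many rows from phenobarbital controls 4 and 5.

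Arrays of the groups compared did not overlap for 4 members above controls in Ctnnb1 tumours (Myc, Ncl, Nhp2 and Nolc1) and for 2 below (Polr1c and Heatr1), against 5.96% and 6.64% of all genes. In Ha-ras tumours this held for 9 members above (Nop58, Nop2, Ncl, Npm1, Nhp2, Polr1c, Polr1e, Noc2l and Tsr1) and 2 below (Dkc1 and Heatr1), against 16.3% and 18.5% of all genes. The 9 make up 25.0% of the members. Arrays of Ncl, Nhp2 and Heatr1 did not overlap with their own controls in either tumour type, by narrow gaps for Ncl and, in Ctnnb1 tumours, for Heatr1.

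**Figure D2:**
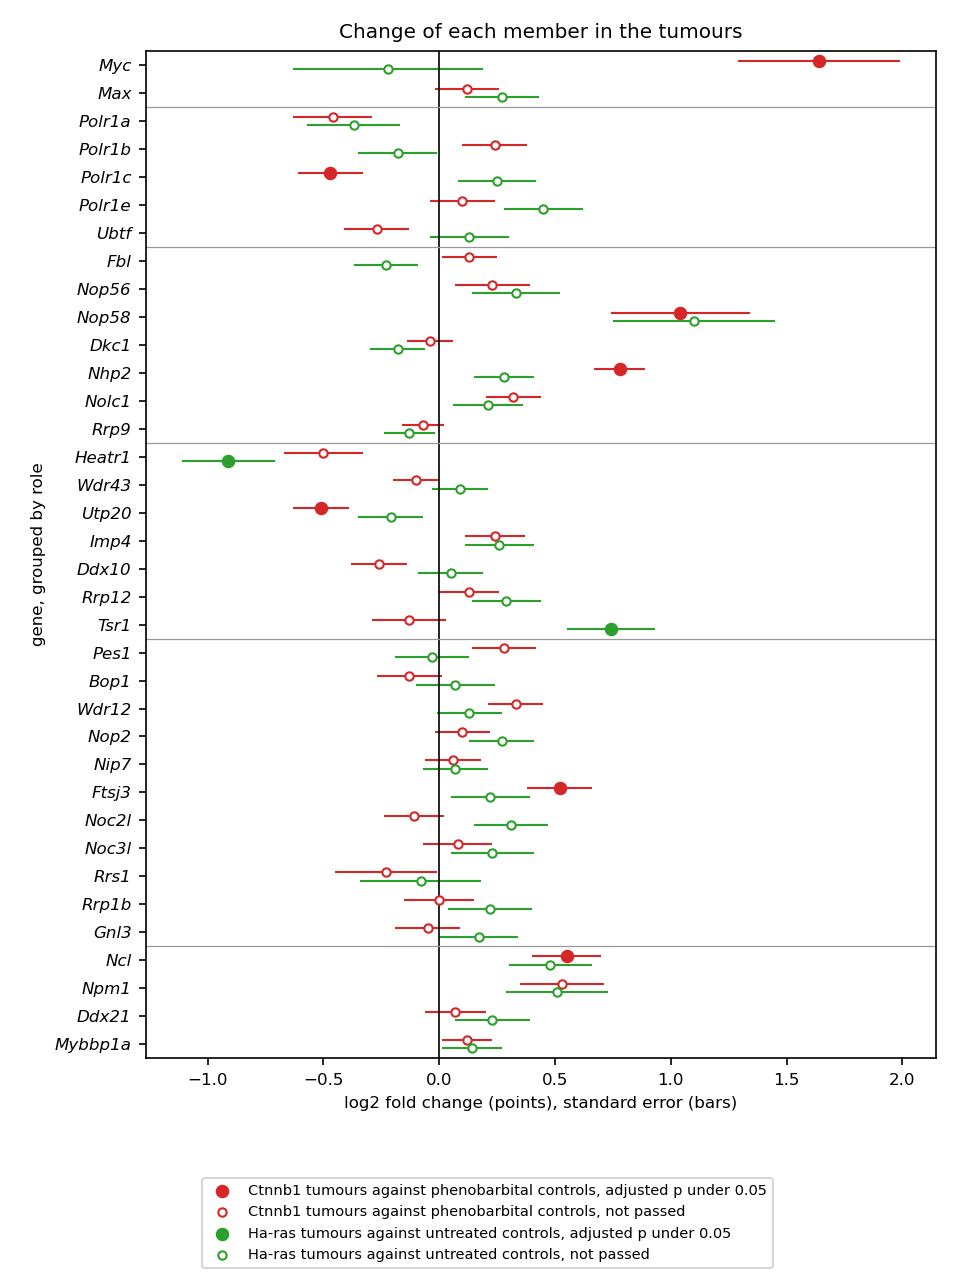
Log2 fold change of each member (points) with its standard error (bars), in Ctnnb1 tumours against phenobarbital controls (red) and in Ha-ras tumours against untreated controls (green), with filled points at an adjusted p under 0.05. Myc at 1.64 is the point farthest to the right in Ctnnb1 tumours, while its Ha-ras value of -0.22 lies near 0.

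Myc itself was measured at 7.83 to 8.71 in the 7 Ctnnb1 tumours, with a median of 8.03. In phenobarbital controls 4, 5 and 6 it was 6.69, 7.06 and 6.08. Every Ctnnb1 tumour lay above every phenobarbital control, and the change was 1.64 ± 0.35 (SE), a fold of 3.12, with an adjusted p of 0.00679. Untreated controls 1, 2 and 3 read 7.67, 6.68 and 8.38, and Ha-ras tumours 1, 2 and 3 read 7.63, 6.50 and 7.94. Both of these groups were widely spread and overlapped each other, and the Ha-ras change was -0.22 ± 0.41 (adjusted p = 0.803). Untreated control 3, at 8.38, also lay within the range of the Ctnnb1 tumours. In order of mean ± SD, Myc stood at 6.61 ± 0.50 in phenobarbital controls (n = 3), 7.36 ± 0.76 in Ha-ras tumours (n = 3), 7.57 ± 0.85 in untreated controls (n = 3) and 8.25 ± 0.36 in Ctnnb1 tumours (n = 7). Each group overlapped its neighbour in this order, so that only phenobarbital controls and Ctnnb1 tumours, at its ends, stood clear of each other.

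The Myc call in Ctnnb1 tumours held when each of the 10 arrays was left out in turn, with changes of 1.38 to 1.87 and adjusted p-values of 0.00791 to 0.0497. The last of these was without phenobarbital control 6, which had the lowest Myc level of all arrays. With the Gapdh gap as a covariate the change was 1.32 and the adjusted p 0.114. Without phenobarbital control 6 and Ctnnb1 tumours 6 and 7 it was 1.24, with an adjusted p of 0.0982.

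Max, which pairs with Myc and with the Myc antagonists alike, passed in neither tumour type. It was 6.76 to 7.21 in Ctnnb1 tumours with a median of 6.89, and 6.77, 6.66 and 7.06 in phenobarbital controls, ranges that overlap. It was 6.61, 6.53 and 6.92 in Ha-ras tumours and 6.58, 6.09 and 6.58 in untreated controls, which overlap as well. The changes were 0.12 ± 0.14 (adjusted p = 0.617) and 0.27 ± 0.16 (adjusted p = 0.332).

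Among the 7 proteins of small nucleolar ribonucleoproteins, 2 rose in Ctnnb1 tumours and none fell, and none passed in Ha-ras tumours. Nhp2, a core protein of the H/ACA particles that turn uridine into pseudouridine, gave the smallest p of any member. It was 9.86 to 10.41 in Ctnnb1 tumours with a median of 10.02, and 9.31, 9.22 and 9.29 in phenobarbital controls. Untreated controls read 9.25, 9.23 and 9.11 and Ha-ras tumours 9.58, 9.40 and 9.45, so that all 7 Ctnnb1 tumours lay above the other 9 arrays. The change was 0.78 ± 0.11, a fold of 1.71, with an adjusted p of 0.000350, and it passed without each of the 10 arrays. In Ha-ras tumours the arrays also lay above their controls, but the change of 0.28 ± 0.13 did not pass (adjusted p = 0.171).

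Nop58, a core protein of the C/D particles that guide methylation of ribosomal RNA, was 7.97 to 9.23 in Ctnnb1 tumours with a median of 8.53. Phenobarbital controls read 7.63, 8.21 and 6.94, so that the ranges overlapped. The change was 1.04 ± 0.30 (adjusted p = 0.0340), and it passed in 5 of the 10 fits that each left out an array. Ha-ras tumours read 8.34, 8.60 and 8.58 and untreated controls 7.47, 7.84 and 6.91, with no overlap and a change of 1.10 ± 0.35 that lay just outside the threshold (adjusted p = 0.0511). The difference between these changes was -0.06 ± 0.46 (adjusted p = 0.966), and -0.39 without phenobarbital control 6 (adjusted p = 0.725). The call in Ctnnb1 tumours alone thus does not show a difference between the tumour types, and with so wide an error a difference is not excluded either.

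The other 5 proteins of this group passed in neither tumour type. Nop56, the partner of Nop58, changed by 0.23 in Ctnnb1 and 0.33 in Ha-ras tumours, and Fbl, the methyltransferase of the same particle, by 0.13 and -0.23. Dkc1, the pseudouridine synthase beside Nhp2, read -0.04 and -0.18. Nolc1, a chaperone of these particles, read 0.32 (adjusted p = 0.107) and 0.21, and Rrp9, a protein of the U3 particle, -0.07 and -0.13. Nhp2 and Dkc1, which sit in the same particle, gave unlike values in Ctnnb1 tumours by their brightest probe sets. Other probe sets of Dkc1 did not share a direction there, at 0.49 and -0.58, and did not pass.

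Of 4 multifunctional nucleolar proteins, 1 rose in Ctnnb1 tumours. Ncl, nucleolin, which binds ribosomal RNA and is among the most abundant proteins of the nucleolus, was 10.52 to 11.19 in Ctnnb1 tumours with a median of 11.03. It was 10.49, 10.35 and 10.22 in phenobarbital controls, just below the lowest tumour, and the change was 0.55 ± 0.15 (adjusted p = 0.0278), a call lost without phenobarbital control 5 or 6. In Ha-ras tumours it was 11.20, 10.55 and 10.94 against 10.48, 10.23 and 10.53 in untreated controls. That change, 0.48 ± 0.18, was of similar size and did not pass (adjusted p = 0.0951). Npm1, the nucleolar chaperone nucleophosmin, read 0.53 ± 0.18 in Ctnnb1 tumours (adjusted p = 0.0699), 0.23 ± 0.15 there without phenobarbital control 6 (adjusted p = 0.441), and 0.51 ± 0.22 in Ha-ras tumours (adjusted p = 0.146). The RNA helicase Ddx21 and the Myb-binding protein Mybbp1a changed by 0.07 and 0.12 in Ctnnb1 tumours and by 0.23 and 0.14 in Ha-ras tumours.

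The 5 genes of the RNA polymerase I machinery did not share a direction. Polr1c, a subunit common to RNA polymerases I and III, fell in Ctnnb1 tumours by 0.47 ± 0.14 on the log2 scale (adjusted p = 0.0409). It was 8.62 to 8.74 in the 7 tumours, with a median of 8.66, and 8.84, 8.86 and 9.72 in phenobarbital controls, so that phenobarbital control 6 was far above all other arrays. Of 10 fits that each left out an array, 8 did not call it. In Ha-ras tumours Polr1c was 8.81, 8.83 and 8.87 against 8.50, 8.71 and 8.56 in untreated controls, all above them, with a change of 0.25 ± 0.17 that did not pass (adjusted p = 0.395). The catalytic subunits Polr1a and Polr1b read -0.46 and 0.24 in Ctnnb1 tumours and -0.37 and -0.18 in Ha-ras tumours. The subunit Polr1e read 0.10 and 0.45, and Ubtf, which opens ribosomal DNA for transcription, -0.27 and 0.13, none of which passed.

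Among the 7 assembly factors of the small subunit, 1 fell in Ctnnb1 tumours, and in Ha-ras tumours 1 rose and 1 fell. Heatr1, a scaffold of the early small subunit particle, was 7.85, 7.93 and 8.55 in Ha-ras tumours against 9.21, 9.13 and 8.73 in untreated controls. All 3 tumours lay below all 3 controls, the change was -0.91 ± 0.20, a fold of 1.89, and the adjusted p was 0.00546. This call passed without each of the 6 arrays in turn. Ctnnb1 tumours were at 7.75 to 8.41 with a median of 8.14, against 8.72, 8.75 and 8.41 in phenobarbital controls. The highest tumour and the lowest control differed only beyond the second decimal, and the change of -0.50 ± 0.17 did not pass (adjusted p = 0.0643). Of the other probe sets of Heatr1, which are dimmer, 1 read -0.30 and 1 read 0.09 in Ha-ras tumours, so that the fall rests on the brightest probe set.

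Tsr1, a late assembly factor of the small subunit, was 8.59, 8.35 and 8.54 in Ha-ras tumours against 7.71, 7.89 and 7.67 in untreated controls. The tumours lay clear above, with a change of 0.74 ± 0.19 and an adjusted p of 0.0144. The call was lost without untreated control 1, without untreated control 3 and without Ha-ras tumour 1, with an adjusted p of at most 0.0572. Phenobarbital controls 4, 5 and 6 were also high, at 8.23, 8.25 and 8.92, and Ctnnb1 tumours ran from 8.02 to 8.73 with a median of 8.35. By this probe set untreated controls were the lowest group, and the change in Ctnnb1 tumours was -0.13 ± 0.16 (adjusted p = 0.652).

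Utp20, a large scaffold protein of early pre-ribosomes, fell in Ctnnb1 tumours by 0.51 ± 0.12 on the log2 scale (adjusted p = 0.0135). It was 7.32 to 7.78 in the tumours, with a median of 7.49, and 7.76, 7.99 and 8.31 in phenobarbital controls, with Ctnnb1 tumour 1 just above the lowest control. Ha-ras tumours read 7.73, 7.65 and 7.87 and untreated controls 8.16, 7.90 and 7.84, which overlap, and the change of -0.21 ± 0.14 did not pass (adjusted p = 0.390). The other 4 small subunit factors did not pass either. Wdr43 changed by -0.10 in Ctnnb1 and 0.09 in Ha-ras tumours, Imp4 by 0.24 and 0.26, the helicase Ddx10 by -0.26 and 0.05, and Rrp12 by 0.13 and 0.29.

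Only Ftsj3 passed among the 11 factors of the large subunit, and it rose in Ctnnb1 tumours. It encodes a methyltransferase that acts on ribosomal RNA precursors. It was 7.06 to 7.52 in the tumours with a median of 7.17, and 6.72, 7.09 and 6.26 in phenobarbital controls, so that phenobarbital control 5 lay within the tumour range. The change was 0.52 ± 0.14 (adjusted p = 0.0269), and the call was lost without phenobarbital control 4 or 6. Ha-ras tumours read 6.98, 7.01 and 7.08 and untreated controls 6.67, 6.98 and 6.75, with a change of 0.22 ± 0.17 (adjusted p = 0.466).

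The PeBoW complex, formed by Pes1, Bop1 and Wdr12 and needed for the large subunit, gave changes of 0.28, -0.13 and 0.33 in Ctnnb1 tumours and of -0.03, 0.07 and 0.13 in Ha-ras tumours. The methyltransferase Nop2 read 0.10 and 0.27, Nip7 0.06 and 0.07, and the GTP-binding protein Gnl3 (nucleostemin) -0.05 and 0.17. The remaining values were -0.11 and 0.31 for Noc2l, 0.08 and 0.23 for Noc3l, -0.23 and -0.08 for Rrs1, and 0.00 and 0.22 for Rrp1b. None of these 10 genes passed in either tumour type.

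**Figure D3:**
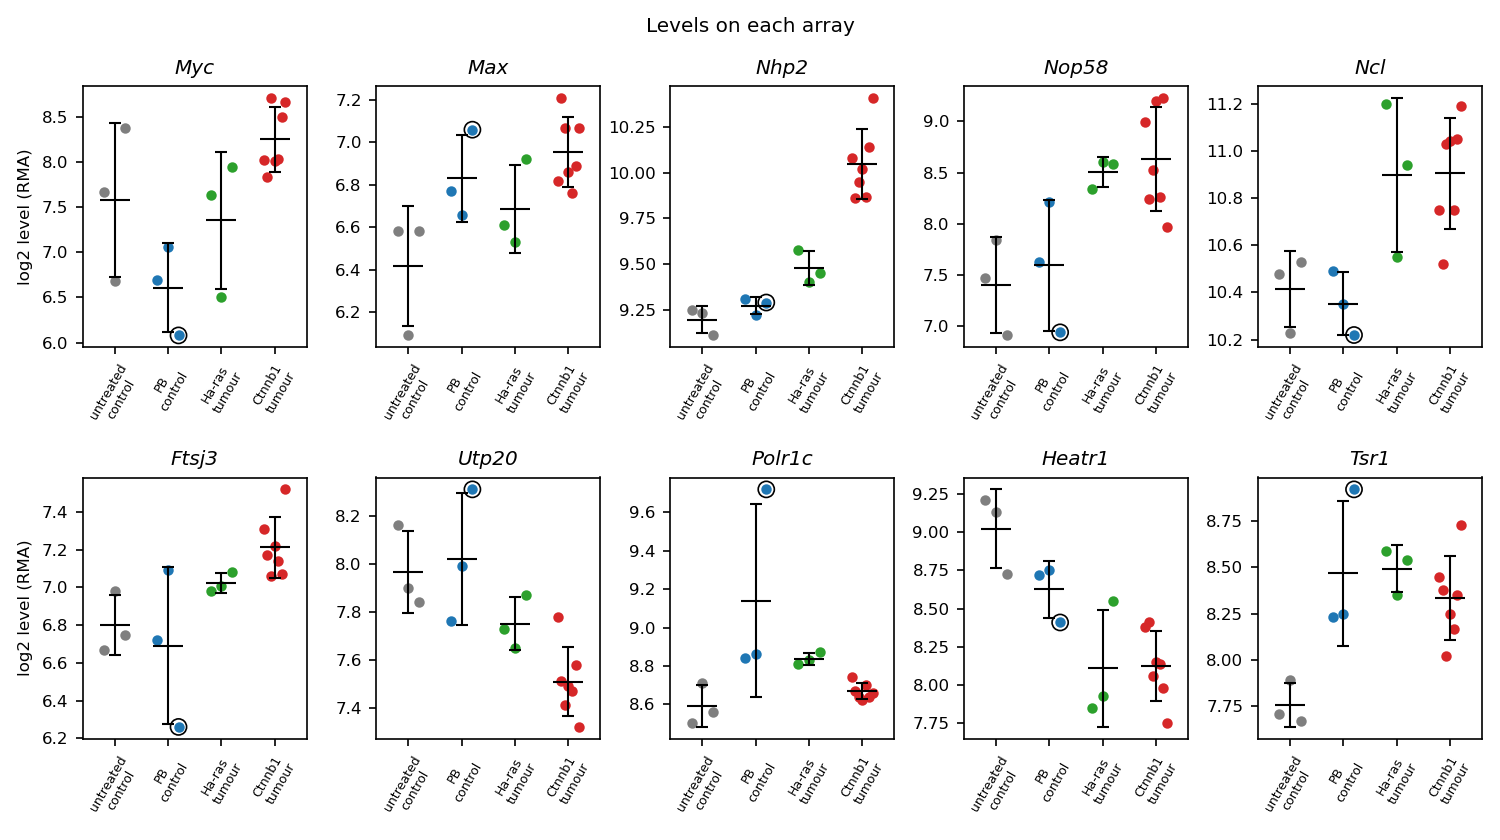
Log2 level on each array (points) of Myc, Max and the 8 other members that passed in a tumour comparison, by group, with the mean (horizontal line) and SD (bars); each vertical axis has its own range and does not start at 0. The circled point is phenobarbital control 6, which is the lowest of all arrays for Myc (6.08) and the highest for Polr1c (9.72).

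When phenobarbital control 6 was left out, 2 of the 7 members called in Ctnnb1 tumours still passed, Nhp2 at 0.79 (adjusted p = 0.00188) and Myc at 1.38 (adjusted p = 0.0497). Of all genes, 3.65% then passed as higher and 3.70% as lower. Nop58 read 0.71 (adjusted p = 0.215), Ncl 0.48 (0.122), Ftsj3 0.31 (0.180), Utp20 -0.37 (0.0906) and Polr1c -0.18 (0.193). All 5 kept their sign and became smaller. Among members not called, Polr1a moved from -0.46 to -0.19, Ubtf from -0.27 to -0.02, Pes1 from 0.28 to 0.13 and Polr1b from 0.24 to 0.05. Another 6 members turned sign, all of them uncalled, and the median over the members was 0.13 against -0.01 over all genes. Polr1c lost most of its change in this way and Nhp2 none.

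**Figure D4:**
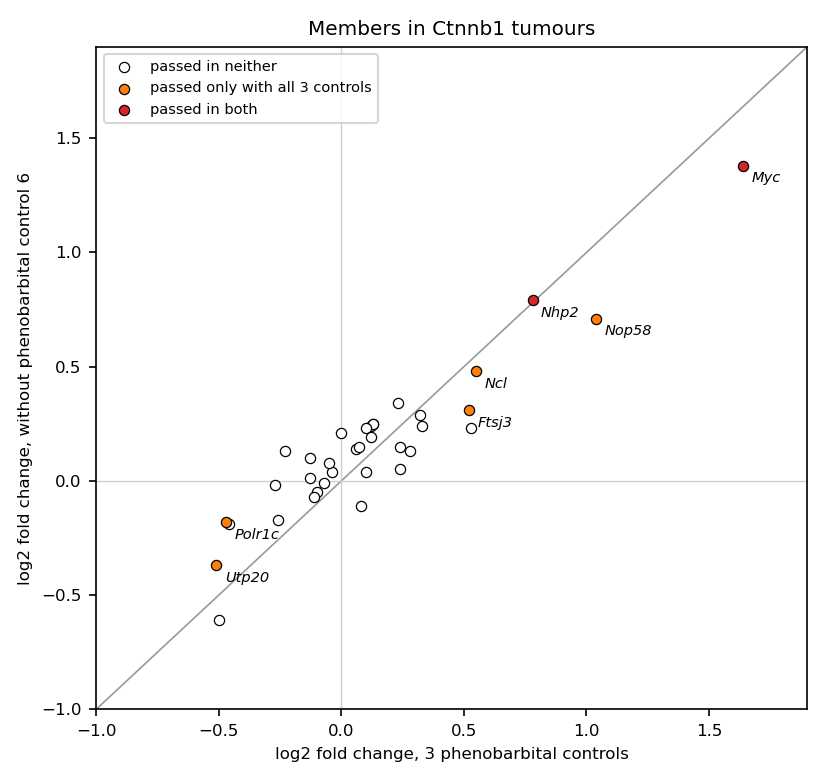
Log2 fold change of each member in Ctnnb1 tumours against the 3 phenobarbital controls (horizontal axis) and against controls 4 and 5 alone (vertical axis); the diagonal marks equal values. Nhp2 lies on the diagonal (0.78 and 0.79), while Myc (1.64 and 1.38), Nop58 (1.04 and 0.71) and Polr1c (-0.47 and -0.18) move toward 0.

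The difference between the tumour effects was tested as the Ctnnb1 change minus the Ha-ras change. No member passed as higher and 1 passed as lower, against 2.14% and 3.29% of all genes. At an unadjusted p under 0.05 there were 2 on each side, against 8.73% and 9.52% of all genes. The member that passed was Tsr1, at -0.87 ± 0.24 with an adjusted p of 0.0500 that lies just under the threshold before rounding, and it passed in 3 of the 16 fits that each left out an array. For Myc the difference was 1.86 ± 0.54 and did not pass (adjusted p = 0.0585). For Polr1c it was -0.72 ± 0.22 (adjusted p = 0.0722) and for Nhp2 0.49 ± 0.17 (adjusted p = 0.105). Against phenobarbital controls 4 and 5 alone, Tsr1 read -0.64 (adjusted p = 0.0993), Myc 1.59 (0.136) and Polr1c -0.43 (0.0395), so that the passing member was another one, while 1.95% of all genes passed as higher and 2.98% as lower. The median over the members was -0.10, against 0.01 over all genes.

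Between phenobarbital and untreated controls no member passed in either direction by limma, where 0.132% of all genes passed as higher and 0.0824% as lower. At an unadjusted p under 0.05, 10 members were higher and 1 lower, against 7.23% and 6.40% of all genes. Of the 36 members 26 had values above 0, with a median of 0.17 against -0.02 over all genes. All phenobarbital controls lay above all untreated controls for 11 members and below for 2, against 9.40% and 9.44% of all genes. Examples were Tsr1 at 0.71 ± 0.19 (adjusted p = 0.124), Nop56 at 0.60 ± 0.19 (0.182) and Rrp12 at 0.46 ± 0.15 (0.206). Myc pointed the other way, at -0.97 ± 0.41 (adjusted p = 0.323), with overlapping arrays. The members' median was 0.13 without phenobarbital control 6. These controls also serve as the baseline of the tumour comparisons, so the 3 sets of values are not independent.

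Of the members, 26 had more than 1 probe set, and the brightest did not always speak for the others. In Ctnnb1 tumours the second probe set of Nhp2 gave 1.13 (adjusted p = 0.000626 over all probe sets), beside the 0.78 above. Other probe sets passed where the brightest did not for Pes1 (1.08, adjusted p = 0.00213), Fbl (0.54, 0.00329), Nop56 (0.64, 0.0156) and Npm1 (0.96, 0.0402). The second probe set of Polr1c read -0.01 (adjusted p = 0.952). Those of Ncl ranged from 0.06 to 1.49. In Ha-ras tumours a second probe set of Tsr1 gave 0.59 (adjusted p = 0.0221), and 1 of Ddx21 gave 0.61 (0.00359). That probe set of Tsr1 gave -0.32 (adjusted p = 0.477) for the difference between the tumour effects and 0.15 (0.721) between the control groups, so that the larger values given for these rest on 1 probe set. The second probe set of Fbl passed as higher in the difference, at 0.65 ± 0.15 (adjusted p = 0.0239). A count of members is thus tied to the probe set rule.

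The tumours of 1 group differed among themselves. Of the 36 members, 16 had their highest level among the 7 Ctnnb1 tumours in tumour 7, whose mean over the members was 8.18 against 7.96 to 8.09 in the other 6. Of the 3 Ha-ras tumours, tumour 2 was lowest for 25 members and tumour 3 highest for 21. Ha-ras tumour 2 had a mean over the members of 7.78, within the 7.77 to 7.83 of the untreated controls, while Ha-ras tumours 1 and 3 were at 7.97 and 8.05.

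The genes around the members were read from lists of the same biology. Of 43 ribosomal protein genes measured out of 77 listed, 14 rose and none fell in Ctnnb1 tumours, and 10 rose and none fell in Ha-ras tumours. The shares that rose were 32.6% against 6.07% of all genes in Ctnnb1 tumours, and 23.3% against 7.21% in Ha-ras tumours. At an unadjusted p under 0.05 in limma, 2 and 0 of the 43 were lower. Their median changes were 0.27 and 0.31, against -0.03 and -0.04 over all genes. Among those that passed, the largest changes in Ctnnb1 tumours were Rps19 at 0.63, Rplp0 at 0.62, Rps9 at 0.51 and Rpl7a at 0.51. Without phenobarbital control 6 they were 0.27, 0.29, 0.35 and 0.21, none of which passed. In Ha-ras tumours the largest that passed were Rpl35 at 0.56, Rps9 at 0.54, Rps6 at 0.52 and Rplp2 at 0.45. All Ha-ras tumours lay above all untreated controls for 35 of the 43, or 81.4%, beside 16.3% of all genes.

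These ribosomal protein counts leaned on single arrays more than the medians did. Only Rpl41 still passed in Ctnnb1 tumours without phenobarbital control 6, at 0.34 (adjusted p = 0.0374), while the median was 0.20 and 37 of the 43 lay above 0. In Ha-ras tumours leaving out 1 array gave 1 to 10 calls and medians of 0.27 to 0.35, with the fewest without untreated control 1 or Ha-ras tumour 1. Without untreated control 3 or Ha-ras tumour 2 there were 3 calls, and without untreated control 2 there were 5. In Ctnnb1 tumours the count was 6 without tumour 1, 8 without tumour 3 and 7 without tumour 6 or 7, and 2 fell when tumour 5 or phenobarbital control 4 or 5 was left out. Family members and their pseudogenes share sequence, so that the gene a probe set reads is uncertain here.

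Of 95 other ribosome assembly factors measured, 7 rose (7.37%) and 5 fell (5.26%) in Ctnnb1 tumours, near the 6.07% and 5.97% of all genes. The median over the 95 was 0.01. The 12 called included the helicases Ddx18 at 0.81 and Ddx56 at 0.56 and the GTP-binding protein Gnl3l at 0.56, which rose. Rpf2, at -0.55, was among those that fell. Of these 12, only Gnl3l passed without phenobarbital control 6, at 0.54 (adjusted p = 0.0384). In Ha-ras tumours 6 rose (6.32%) and none fell, against 7.21% and 6.33% of all genes, with a median of 0.07. Gar1, a partner of Nhp2, had the largest change of the 6 at 0.69 (adjusted p = 0.00846). Leaving out 1 array gave 2 to 4 higher calls there, with 2 without untreated control 3 or Ha-ras tumour 1, and 3 without untreated control 1 or Ha-ras tumour 2 or 3. At an unadjusted p under 0.05, 3 were lower. In Ctnnb1 tumours the higher count was 4 without tumour 1 or 3 and 12 without phenobarbital control 5. Gnl3l passed in both tumour types, with 0.59 in Ha-ras tumours.

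Of 10 further RNA polymerase I factors, Taf1b rose in Ctnnb1 tumours (1.07, adjusted p = 0.0210, and 0.53 with 0.104 without phenobarbital control 6) and Polr1d in Ha-ras tumours (0.47, adjusted p = 0.00856). Each makes up 10.0% of this list, where 6.07% and 7.21% of all genes rose. Of 11 other genes of the Myc network, which include antagonists of Myc, only Mlxip passed. It fell by 0.71 in Ctnnb1 tumours (adjusted p = 0.0226), which is 9.09% of the list against 5.97% of all genes. With phenobarbital control 6 left out, Mlxip read -0.86 and the antagonist Mxi1 also passed, at -0.57, while no gene of this list passed without phenobarbital control 4 or 5. Of 40 other known Myc targets, 6 rose and 3 fell in Ctnnb1 tumours, where 6.07% of all genes rose and 5.97% fell. In Ha-ras tumours 2 of the 40 rose and 3 fell, where 7.21% of all genes rose and 6.33% fell. The higher count in Ctnnb1 tumours was thus above the share of all genes, and the Ha-ras counts were near it. The replication helicase gene Mcm2 rose in both tumour types, by 0.52 and 0.72, and the purine synthesis gene Paics fell in both, with changes of -0.80 and -0.60. Without phenobarbital control 6 the higher calls in Ctnnb1 tumours were Mcm5 at 1.12 and Mthfd2 at 0.81, and the 3 lower ones still passed. The higher count was also 2 without Ctnnb1 tumour 1 or 7, and 3 without Ctnnb1 tumour 4 or phenobarbital control 5.

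Of 21 cell cycle genes measured, 16 rose and none fell in Ctnnb1 tumours, with a median of 1.50, and 12 rose and none fell in Ha-ras tumours, with a median of 1.33. Those that rose made up 76.2% and 57.1% of the list, against 6.07% and 7.21% of all genes. Without phenobarbital control 6 the count in Ctnnb1 tumours was 14. Mki67, the marker of dividing cells, rose by 1.50 and 2.06, and the mitotic cyclin Ccnb2 by 2.27 and 2.58. Leaving out 1 array gave 10 to 19 higher calls in Ctnnb1 tumours, the fewest without phenobarbital control 4. It gave 2 to 13 in Ha-ras tumours, with 2 both without untreated control 2 and without Ha-ras tumour 2. No cell cycle gene was lower at an unadjusted p under 0.05 in either.

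**Figure D5:**
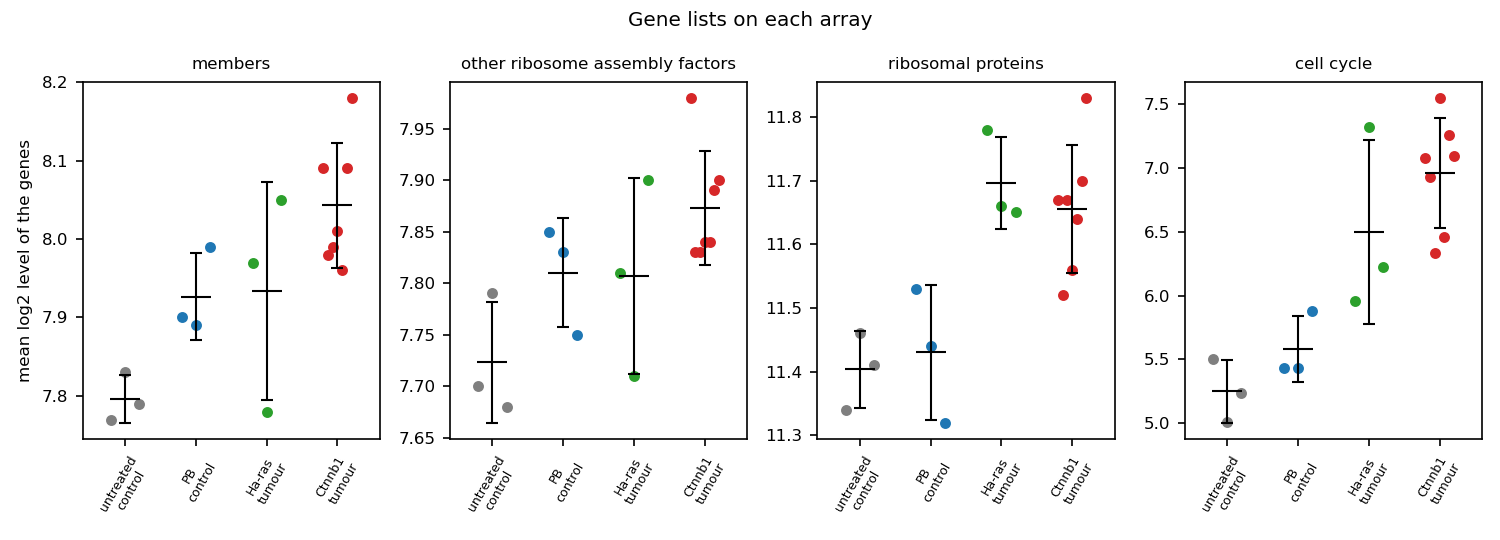
Mean log2 level over the genes of a list on each array (points), by group, for the 36 members, 95 other assembly factors, 43 ribosomal proteins and 21 cell cycle genes, with the group mean (horizontal line) and SD (bars); each vertical axis has its own range. Cell cycle means run from 5.01 to 5.88 in controls and from 5.96 to 7.55 in tumours. The means of the members run from 7.96 to 8.18 in Ctnnb1 tumours. They are 7.90, 7.89 and 7.99 in phenobarbital controls 4, 5 and 6, of which only control 6 reaches the tumours. In Ha-ras tumours they run from 7.78 to 8.05 and overlap with the 7.77 to 7.83 of untreated controls.

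Bulk RNA holds every cell type of the tissue, and fewer cells of a type cannot be told apart from less RNA per cell. The 8 hepatocyte markers were bright on every array, with means of 13.37 to 14.11. Of these, Cps1 and Tat, enzymes of the urea cycle and of tyrosine breakdown, fell in Ctnnb1 tumours, and Ahsg rose by 0.76 in Ha-ras tumours. Cps1 fell by 2.17. Of 10 stellate cell and fibroblast markers 5 fell in Ctnnb1 and 4 in Ha-ras tumours, with list means of 7.46 to 8.44 and 7.65 to 8.40 against 8.39 to 8.84 and 8.49 to 8.67 in the matching controls. Lrat, a gene of vitamin A storage in stellate cells, fell by 2.13 in both tumour types. Not all 10 went down: 3 lay above 0 in Ctnnb1 and 4 in Ha-ras tumours, by up to 0.58 and 0.75. Without phenobarbital control 6, Col1a1, Col1a2 and Col3a1 read 0.76, 0.55 and 0.09 in Ctnnb1 tumours and did not pass. Of all genes, 5.97% fell in Ctnnb1 and 6.33% in Ha-ras tumours. Of 10 endothelial markers 2 fell in Ctnnb1 tumours and none passed in Ha-ras tumours, with list means of 6.66 to 7.83 and 7.29 to 8.15 against 7.69 to 8.19 in phenobarbital controls and a mean of 7.91 in untreated controls. Of 10 macrophage markers 1 fell in Ctnnb1 tumours and 3 in Ha-ras tumours, with list means of 7.94 to 8.69 and 6.75 to 8.79 against 8.45 to 9.14 and 8.32 to 9.16. In Ctnnb1 tumours 2 of these 10 lay above 0, by up to 0.83. Of 9 lymphocyte markers Ltb alone passed, higher in Ha-ras tumours by 2.52, with list means of 5.35 to 6.14 and 5.56 to 6.34 against 5.57 to 5.78 and 5.52 to 5.93. Marker counts also shifted with single arrays, and for macrophage markers in Ha-ras tumours they ran from 1 to 7. Bile duct markers were dim, with list means of 4.24 to 4.85 on all arrays, and of these 5 only Krt7 passed, lower by 0.61 in Ctnnb1 tumours. The part of these shifts in the values of the members was not tested.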

How the data were processed

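The authors deposited log2 expression values per probe set after RMA, which corrects background, normalizes arrays by quantiles and summarizes probes (RMA and R 2.14.1, per the submitters' processing notes). The 16 arrays were grouped as the labels give them, and values were used without further scaling. Probe sets with 1 gene symbol in the platform's annotation were used (34945 of 45101), and where several shared a symbol the brightest on average stood for the gene. Low values may be background, since no detection calls were used. Quantile normalization sets levels relative to all genes of an array.

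All 4 groups entered a single linear model in limma 3.58.1 (R 4.3.3; lmFit and eBayes), and p-values were adjusted by Benjamini-Hochberg over 18193 genes at a threshold of 0.05. "Rose" and "fell" mean passing it. The fit was tested on simulated data. Errors are standard errors unless marked SD, and the number of arrays limits precision. No 2 arrays held identical values. The members and lists were chosen with earlier results of these data known. Myc, Max and the members that passed in any comparison are described by array. Other lists are named by up to 4 passing genes with the largest changes, and up to 2 against the list's direction. The gene that carries the Ha-ras mutation is not analysed here. Alternatives covered normalization, probe set choice, blocks, weights and each array left out. The omission of phenobarbital control 6 for the gene lists was added after the data were seen.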

Additional observations from a re-analysis of the deposited data

Results flagged for a closer look

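Ubtf was 8.35 in Ctnnb1 tumour 7 and 8.62 to 8.82 in the other 6, a gap of 0.58 of the group's range, just past Dixon's limit for 7 samples. This was the only such case among 36 members, and chance gives about 1 in 20. Tsr1 differed between the tumour types in its change from controls, by -0.87 (Ctnnb1 minus Ha-ras, interaction in limma, adjusted p = 0.0500). Among the other assembly factors, Ppan differed by -0.74 (adjusted p = 0.0212), with -0.37 in Ctnnb1 and 0.37 in Ha-ras tumours. Tex10 differed by -0.80 (adjusted p = 0.0174), with -0.26 in Ctnnb1 and 0.54 in Ha-ras tumours. Without phenobarbital control 6, an alternative added after the data were seen, the Ctnnb1 change was -0.23 for Ppan and -0.16 for Tex10, and their differences were -0.59 (adjusted p = 0.0418) and -0.70 (adjusted p = 0.0435).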

How the results depend on the processing

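Few members were called, and the 16 arrays limit the precision. Alternatives were followed for the called results of members and for all results of Myc and Max. Of these values, 302 stayed on the same side of the threshold, 78 lost the call and 9 gained it. Part of the 302 had no call to lose, among them every value of Max, so the 302 do not measure how often a call was kept. Where a call was made, 1 value reversed, Heatr1 in Ha-ras tumours in another probe set (0.09). Uncalled values that turned sign count among the 302. An example is Myc in Ha-ras tumours, at -0.66 to 0.21 when each array was left out. The phenobarbital counts were 0 under all 18 alternatives. In Ctnnb1 tumours, where 5 members rose and 2 fell, leaving out each array gave 2 to 5 that rose and 0 to 3 that fell. The count of those that rose was 8 with the mean of all probe sets or the probe set of highest variance, 3 with array weights, 2 at a threshold of 0.01, and 1 with the Gapdh gap as a covariate or without phenobarbital control 6 and Ctnnb1 tumours 6 and 7. That of those that fell was 1 with only the arrays compared, and 0 at 0.01, with the covariate and under that joint omission. In Ha-ras tumours, where 1 rose and 1 fell, leaving out each array gave 0 to 3 that rose. The count was 2 with only the arrays compared, with dim genes left out, with the mean of probe sets and with the highest variance, 5 with array weights, which also gave 2 that fell, 0 at 0.01, 4 with the covariate and 3 under the joint omission. For the difference between tumour types, with 0 higher and 1 lower, leaving out each array gave 0 to 1 higher and 0 to 2 lower. There was 1 higher with dim genes left out, the mean of probe sets, quantile normalization, median centring or array weights. There were 0 lower with the mean of probe sets, the highest variance, quantile normalization, median centring, eBayes with trend and robust, the threshold of 0.01 or the covariate, and 2 with array weights. The higher member was Fbl with the mean of probe sets (0.51, adjusted p = 0.0347). Beside the fits that left out an array, Myc passed as higher in 6 alternatives, replicate blocks included, with adjusted p-values of 0.0316 to 0.0488. The cause of these shifts was not tested.

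Deviations of same-numbered tumours and controls from their group means had correlations of 0.13, 0.09 and -0.12 for Ctnnb1 and 0.03, 0.40 and 0.24 for Ha-ras. Samples of unlike number were not compared in this way, so these values cannot decide whether the numbers pair the samples. The main model did not pair them, and blocks by number were alternatives. A fixed replicate block left 2 members that rose and 0 that fell in Ctnnb1 tumours, and 1 higher and 0 lower in the difference. A random replicate block gave 2 that rose in Ha-ras tumours and 1 higher in the difference.

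Without phenobarbital control 6, an alternative added after the data were seen, list counts in Ctnnb1 tumours moved from 14 to 1 for ribosomal proteins, from 7 to 1 higher and 5 to 0 lower for other assembly factors, from 6 to 2 for other Myc targets, from 1 to 0 for RNA polymerase I factors and from 1 to 2 lower for the Myc network. Among markers, endothelial genes moved from 2 to 1 lower and bile duct genes from 1 to 0, and stellate and fibroblast genes from 5 to 4 lower.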
